A study of Mus musculus with 18 samples.

Results

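The uncoupling proteins are carriers of the inner mitochondrial membrane, and their genes were sought by symbol among probe sets that carry 1 gene symbol in the platform annotation. Of 3 genes sought, Ucp1 and Ucp3 were found, each with 1 probe set, among 19937 measured genes. Ucp2 was named by 0 single-symbol probe sets and is not analysed here. The 18 arrays held total RNA, 500 ng labelled per array, from male C57BL/6J mice of 10 weeks fed chow. FXR mice were adipose-specific overexpressors of human FXR, the bile acid receptor, and controls were wild type. There were 5 arrays of FXR brown adipose tissue (BAT), 5 of control BAT, 4 of FXR white adipose tissue (WAT) and 4 of control WAT. The promoter that drives the transgene, the WAT depot and any sharing of mice between BAT and WAT are not given in the sources used here. For control BAT 2 and 4 alone, the extraction notes mention 6 weeks of feeding.

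Ucp1 makes heat in brown adipocytes by letting protons back across the inner mitochondrial membrane, so that fuel is burned without making ATP. Noradrenaline switches it on through beta-adrenergic receptors and cyclic AMP, which free fatty acids that activate the protein and which raise transcription of its gene. Ucp3 is found mainly in skeletal muscle and brown fat, where it is tied to fatty acid use rather than to heat production.

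Ucp3 and Ucp2 are neighbours in the reference gene table on mouse chromosome 7, and Ucp1 lies on chromosome 8. The promoters of both measured genes are shown because both genes fell in FXR BAT. Each sequence is the 250 bases before the RefSeq gene start on the plus strand, with matches to 3 of 4 searched motifs in capitals. Ucp1 covers chr8:83290098-83290347 and Ucp3 covers chr7:100472741-100472990 (GRCm38.p6).
Ucp1: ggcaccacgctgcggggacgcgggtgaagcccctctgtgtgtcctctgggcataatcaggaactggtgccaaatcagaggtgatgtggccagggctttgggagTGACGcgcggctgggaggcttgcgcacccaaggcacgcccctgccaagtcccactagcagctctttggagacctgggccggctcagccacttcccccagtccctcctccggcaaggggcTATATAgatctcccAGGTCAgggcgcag
Ucp3: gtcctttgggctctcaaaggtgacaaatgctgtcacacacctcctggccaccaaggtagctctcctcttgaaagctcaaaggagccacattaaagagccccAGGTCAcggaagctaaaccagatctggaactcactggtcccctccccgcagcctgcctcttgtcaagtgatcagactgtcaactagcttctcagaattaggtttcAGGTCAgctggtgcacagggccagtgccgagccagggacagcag
AGGTCA, the core hexamer bound by many nuclear receptors, occurred 1 time before Ucp1, starting 14 bases from the start, and 2 times before Ucp3, starting 149 and 44 bases from it. Searched on both strands, this hexamer occurred in 14% of all 32851 RefSeq promoter windows of the same length. Ucp1 also held TGACG, the core of the cyclic AMP response element, which occurred in 17.8% of windows and through which that messenger can act on a gene. A TATA element searched as TATATA occurred before Ucp1 as well, and in 5.25% of windows. Ucp3 held neither of these 2 motifs. The inverted repeat of this hexamer with 1 base between, of the kind FXR binds, was in neither window and in 0.00609% of windows. The matches shown did not overlap. Ucp1 had 64.8% G and C and 12 CG pairs in this window, and Ucp3 had 54.8% and 3.

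Intensities are on a linear scale as the authors processed them, and differences are in log2(intensity + 1). Array medians were 97.6 to 99.9 in FXR BAT, 93.1 to 97.8 in control BAT, 60.5 to 61.5 in FXR WAT and 60.7 to 61.7 in control WAT, so the tissues were on different scales. Nr1h4, the mouse gene of FXR, differed by 0.05 ± 0.03 in BAT and by 0.03 ± 0.04 in WAT (SE; limma with Benjamini-Hochberg, adjusted p = 0.408 for BAT and 0.834 for WAT), and its probe set is no measure of the human transgene. Nr0b2, an FXR target, differed by 0.07 in BAT and by -0.03 in WAT and did not pass either. It was dim, with mean log2 levels of 6.24 in FXR BAT, 6.17 in control BAT, 5.87 in FXR WAT and 5.90 in control WAT. These lay below the median gene of each array, where a change may be compressed, so no response of this gene can be read from them.

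In BAT, both uncoupling protein genes were lower in FXR mice. Ucp1 had intensities of 7296, 8182, 6240, 7070 and 6295 on FXR BAT arrays 1 to 5, against 8728, 10992, 10088, 9687 and 9389 on control BAT arrays 1 to 5. Every FXR array lay below every control array. Ucp1 averaged 7017 ± 800 in FXR BAT and 9777 ± 841 in control BAT (SD, n = 5 each), and on the log2 scale it fell by 0.48 ± 0.08 (SE, adjusted p = 0.00247, limma with Benjamini-Hochberg). By these intensities FXR BAT held 71.6% of the control level of Ucp1. Ucp1 ranked 8 to 20 by brightness on FXR BAT arrays and 3 to 11 on control BAT arrays, near the top of the scale. A difference between such bright values may be compressed, which was not tested.

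Ucp3 had intensities of 581, 779, 618, 899 and 658 on FXR BAT arrays 1 to 5, against 1045, 1019, 1049, 1009 and 952 on control BAT arrays 1 to 5. The groups did not overlap, with FXR BAT 4 and 2 nearest to the controls. Ucp3 averaged 707 ± 130 in FXR BAT and 1015 ± 39.2 in control BAT (SD, n = 5 each), and it fell by 0.54 ± 0.10 log2 units (SE, adjusted p = 0.00512, limma), to 68.8% of the control level. Its coefficient of variation was 18.4% in FXR BAT and 3.86% in control BAT, against 11.4% and 8.61% for Ucp1.

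**Figure D1:**
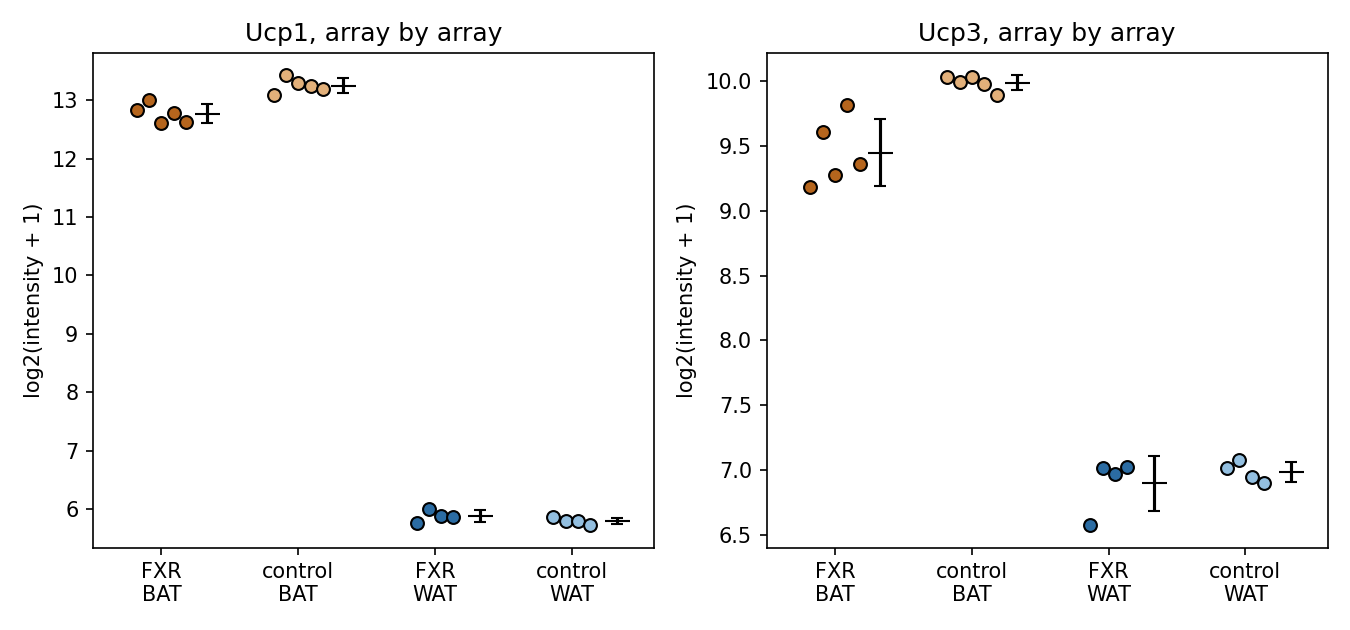
Points show log2(intensity + 1) of Ucp1 (left) and Ucp3 (right) on single arrays of FXR BAT, control BAT, FXR WAT and control WAT, with the group mean and SD to their right (n = 5 in BAT and 4 in WAT); the vertical axes do not start at 0. In BAT all 5 FXR arrays lie below all 5 control arrays for both genes, and in WAT the groups overlap.

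For each of the genes, an exact permutation test of the mean log2 level over 252 arrangements of the BAT arrays gave a two-sided p = 0.00794, the smallest it can give. Across all genes 8.75% were lower and 15.8% changed in either direction in FXR BAT, and 6.29% had all FXR arrays below all control arrays, and 12.2% had no overlap in either direction. Of the called genes 44.5% were higher, against 16.0% when each array was centred on its median. By size of fall, Ucp3 was at place 144 and Ucp1 at place 216 of 19937 genes. Quantile normalization of the BAT arrays, which makes their intensity distributions equal, reduced the fall of Ucp1 to -0.25 ± 0.06 (adjusted p = 0.0296, limma). In this bulk tissue, fewer brown adipocytes and less Ucp1 RNA per brown adipocyte cannot be told apart.

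In WAT, Ucp1 was near the low end of the scale. It had intensities of 53.0, 63.3, 57.6 and 57.2 on FXR WAT arrays 1 to 4, against 57.1, 54.9, 54.4 and 51.9 on control WAT arrays 1 to 4, and the groups overlapped. These values were 1.11 to 1.29 times the 1% quantile of genes in FXR WAT and 1.06 to 1.16 times in control WAT. The difference was 0.08 ± 0.05 log2 units (SE; limma, adjusted p = 0.632; 95% interval -0.04 to 0.20) and did not pass, and a change at so dim a level is compressed. An exact permutation test over 70 arrangements gave p = 0.229, with 0.0286 the smallest possible.

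Ucp3 was brighter in WAT, at 94.3, 128, 124 and 129 on FXR WAT arrays 1 to 4, against 129, 134, 122 and 118 on control WAT arrays 1 to 4. FXR WAT 1 stood below the other 7 WAT arrays, and the other FXR arrays lay within the range of the controls. The difference was -0.09 ± 0.10 log2 units (SE, adjusted p = 0.80, limma; 95% interval -0.31 to 0.13) and did not pass. Without FXR WAT 1 it was 0.02 (adjusted p = 0.953, limma). The exact permutation test gave p = 0.686. In this comparison 1.33% of all genes were called, 0.456% lower and 0.873% higher.

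The difference between the tissues in their FXR effect was tested itself. For Ucp1, the BAT change minus the WAT change was -0.56 ± 0.11 log2 units (SE, 18 arrays, adjusted p = 0.00469, limma), a difference of a kind called for 6.46% of all genes. Because Ucp1 in WAT was near the low end of the scale, a fall there could not have been seen, and this value largely restates the fall in BAT. For Ucp3 it was -0.45 ± 0.15 (adjusted p = 0.0936, limma) and did not pass. The Ucp3 value was -0.54 without FXR BAT 4 (adjusted p = 0.0194, limma) and -0.56 without FXR WAT 1 (adjusted p = 0.0285, limma), and both of these passed. Under quantile normalization it was -0.25 (adjusted p = 0.478, limma).

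Between the tissues, Ucp1 was far brighter in BAT than in WAT in both genotypes. Its level was 6.89 log2 units higher in FXR BAT than in FXR WAT and 7.46 higher in control BAT than in control WAT. With Ucp1 in WAT at no more than 1.29 times the 1% quantile of genes, its low end there sets the size, and the true differences may be larger. In the same comparisons the median gene was higher in BAT by 0.63 in FXR mice and by 0.59 in controls. Ucp3 was 2.55 log2 units higher in FXR BAT than in FXR WAT and 3.00 higher in control BAT than in control WAT. In these comparisons 96.4% of genes were called in FXR mice and 96.8% in controls, so the calls of Ucp1 and Ucp3 add nothing to the sizes. With each array centred on its median, 16085 genes were called in FXR mice and 16540 in controls. Quantile normalization over both tissues gave 6.09 and 6.72 for Ucp1, and 1.37 and 1.68 for Ucp3. The order of both genes was control BAT, FXR BAT and then WAT, whose groups did not differ beyond their spread. Lep, the gene of leptin and a white fat gene, went the other way, with log2 levels of 7.07 to 8.52 in FXR BAT, 6.37 to 6.65 in control BAT, 9.83 to 10.53 in FXR WAT and 8.54 to 9.56 in control WAT, as the tissue labels say.

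Genes of the cyclic AMP route that drives Ucp1 were lower or did not pass in FXR BAT. Of 16 genes listed for the beta-adrenergic and cyclic AMP pathway, 11 were measured; the beta-adrenergic receptor gene Adrb3 was not among them and is not analysed here. Of the 11, 6 fell, 0 rose and 5 did not pass, with a median difference of -0.33 against 0.011 over all genes. Adcy3, an adenylyl cyclase, fell by 1.11 ± 0.16 log2 units (SE, adjusted p = 0.00122, limma). A second cyclase gene, Adcy6, fell by 0.45 and Prkar2b, a regulatory subunit of protein kinase A, by 0.36. Without FXR BAT 1, 2 and 4 the fallen genes numbered 3, under quantile normalization 2, and without control BAT 2 and 4 only 1.

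Of 21 genes that activate Ucp1 transcription, 9 fell and 12 did not pass, with a median of -0.14. Dio2, the deiodinase that supplies active thyroid hormone, fell by 2.15 ± 0.25 log2 units (SE, adjusted p = 2.41e-04, limma), with levels of 6.76 to 7.50 on FXR BAT arrays and 8.26 to 9.70 on control BAT arrays. Ppargc1a, the coactivator PGC-1alpha that links cold to mitochondrial genes, fell by 0.78 ± 0.12 (adjusted p = 0.00195, limma), and Cebpb, a C/EBP factor, by 0.65. Prdm16, a determinant of brown adipocyte fate, fell by 0.40 and Pparg, the master regulator of adipocytes, by 0.37, while Ppara differed by -0.39 and did not pass (adjusted p = 0.0814, limma). Without FXR BAT 1, 2 and 4, the fallen activators numbered 3, and neither Prdm16 nor Pparg was among them. Of 10 repressors of Ucp1, 2 fell, 1 rose and 7 did not pass. The liver X receptor gene Nr1h3 fell by 0.59 and the orphan receptor gene Nr2f6 by 0.28, whereas the pocket protein gene Rbl1 rose by 0.18. The Rbl1 call was lost in 8 of 21 settings, 4 of them with 1 array left out. Centring each array on its median and quantile normalization were among these settings.

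**Figure D2:**
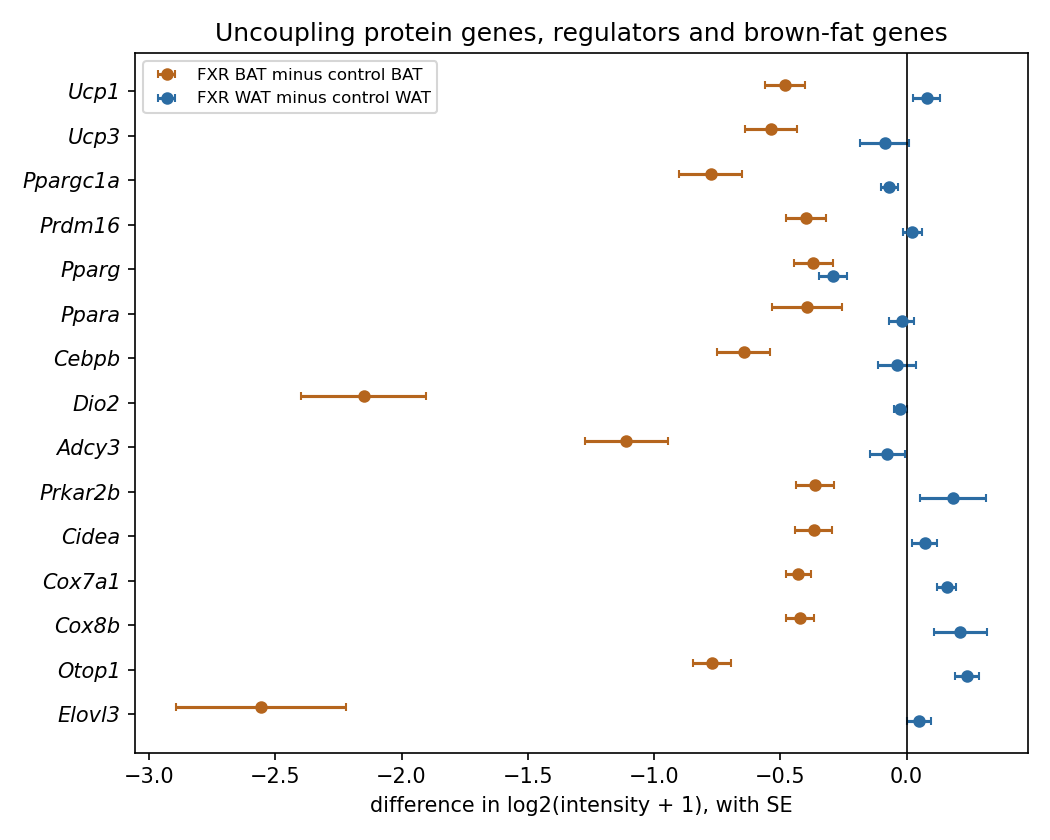
Points show differences in log2(intensity + 1) with SE for Ucp1, Ucp3, some of their regulators and some brown adipocyte genes, FXR minus control, in BAT (n = 5 and 5) and WAT (n = 4 and 4). The BAT points of these 15 genes lie below 0, with Elovl3 and Dio2 farthest at -2.56 and -2.15, and the WAT points lie between -0.29 and 0.24. The genes shown were picked, so their shared direction is no separate result. Regulators not shown include Ebf2 (0.07 in BAT and -0.32 in WAT), Rbl1 (0.18 and -0.08) and Nr1d1 (-0.10 and -0.69).

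Brown adipocyte genes that work beside Ucp1 fell with it. Of 12 measured brown adipocyte effectors, 10 fell, 0 rose and 2 did not pass, with a median of -0.49. Elovl3, a fatty acid elongase, fell by 2.56 ± 0.34 log2 units (SE, adjusted p = 5.98e-04, limma), Otop1, a proton channel, by 0.77 ± 0.08 (adjusted p = 1.06e-04, limma) and Cox7a1, a subunit of cytochrome oxidase, by 0.43. There were 8 fallen effectors without FXR BAT 1, 2 and 4, and 8 under quantile normalization. Cidea, a lipid droplet protein of brown adipocytes, fell by 0.37 (adjusted p = 0.00643, limma), and it did not pass in either of these settings. Of 14 genes that supply Ucp1 with fatty acids, 7 fell, 1 rose and 6 did not pass: the lipase gene Lipe fell by 0.30, the droplet coat gene Plin1 by 0.29 and the carnitine carrier gene Slc25a20 by 0.43. Cpt1a, an enzyme that admits fatty acids to mitochondria, rose by 0.33. That call was lost with each array centred on its median and without FXR BAT 1, 2 and 4. Under quantile normalization 0 of these 14 genes fell with limma (5 at an unadjusted p under 0.05) and 1 rose, and 5 fell without FXR BAT 1, 2 and 4.

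Of 10 genes of heat production without Ucp1, 2 rose, 1 fell and 7 did not pass, with a median of 0.14. Gatm, which makes the precursor of creatine, rose by 0.87 ± 0.15 log2 units (SE, adjusted p = 0.00314, limma) and the creatine transporter gene Slc6a8 by 0.22, a call lost in 10 of 21 settings, 6 of them with 1 array left out. Alpl, an alkaline phosphatase, fell by 0.76. Without FXR BAT 1, 2 and 4, which had the most muscle marker signal, 1 rose and 1 fell, and the median was -0.0043.

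Among 10 relatives of the uncoupling proteins in the mitochondrial carrier family, 1 rose, 1 fell and 8 did not pass, with a median of 0.033. Slc25a27, also known as UCP4, rose by 0.24 ± 0.04 (SE, adjusted p = 0.00133, limma), at dim mean log2 levels of 6.81 in FXR BAT and 6.57 in control BAT. Slc25a11, the oxoglutarate carrier, fell by 0.26. There were 5 falls without FXR BAT 1, 2 and 4. With limma there were 0 under quantile normalization and 0 without control BAT 2 and 4 (1 in each at an unadjusted p under 0.05).

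Of 12 PPAR target genes that rise with Ucp3 on fasting, 5 fell, 1 rose and 6 did not pass, with a median of -0.23. The acyl-CoA dehydrogenase genes Acadl and Acadvl fell by 0.38 and 0.27 and the trifunctional protein gene Hadha by 0.26. Under quantile normalization 0 of the 12 fell with limma (2 at an unadjusted p under 0.05) and 1 rose, and 1 fell without control BAT 2 and 4. Of 9 antioxidant genes of mitochondria, 6 fell and 3 did not pass. Txnrd2 and Txn2, of the thioredoxin system, fell by 0.34 and 0.35 and Sod2, a superoxide dismutase, by 0.40, and 3 of the 9 fell under quantile normalization and also without control BAT 2 and 4. Of 10 genes of glutamine and pyruvate use, 2 fell, Mdh2 by 0.22 and Glud1 by 0.26, and 1 rose, Got2 by 0.73. With limma 0 of the 10 fell under quantile normalization (0 at an unadjusted p under 0.05). Without control BAT 2 and 4, 0 fell with limma (3 at an unadjusted p under 0.05). In contrast, 4 fell without FXR BAT 1, 2 and 4, and 4 with each array centred on its median. The Glud1 call was also lost in 7 fits with 1 array left out. Across the lists the background was 8.75% of genes lower and 7.01% higher.

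**Figure D3:**
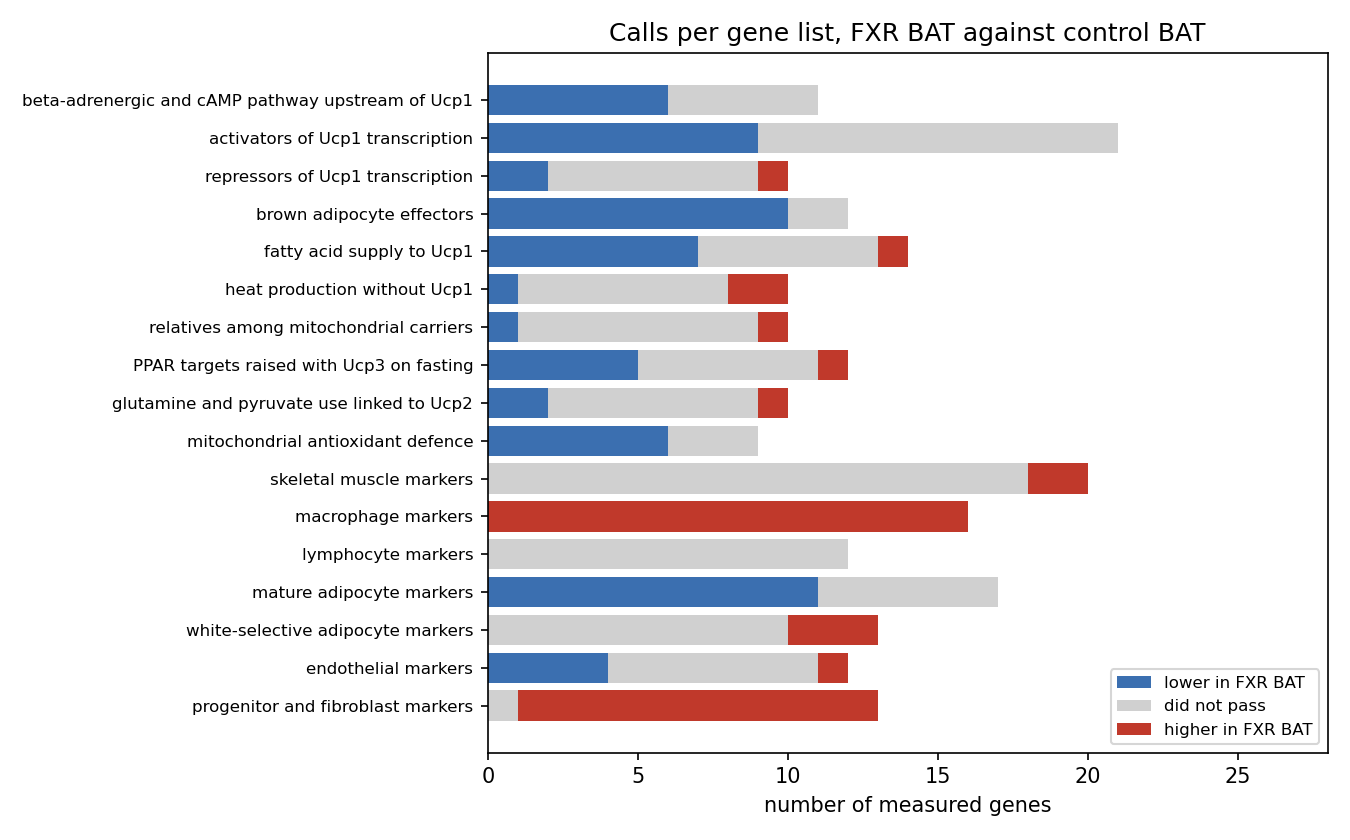
Bars give the number of measured genes in each list that were lower in FXR BAT, did not pass, or were higher in FXR BAT (limma with Benjamini-Hochberg over all genes). The longest share of lower genes is that of brown adipocyte effectors, 10 of 12, and all 16 macrophage markers are higher.

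In WAT, few of these genes were called. None of the 11 cyclic AMP genes, 12 brown effectors, 10 genes of heat production without Ucp1 or 10 carriers passed with limma; at an unadjusted p under 0.05 there were 4, 3, 4 and 0. Of the 21 activators 2 fell, Pparg by 0.29 and the brown fat factor gene Ebf2 by 0.32, and of the 10 repressors the clock repressor gene Nr1d1 fell by 0.69. Lpl and Cpt1a, of fatty acid supply, rose by 0.28 and 0.27. Acot2, an acyl-CoA thioesterase, fell by 0.38 and Sod2 rose by 0.30. Of 11 WAT calls among all named genes, 10 were lost in at least 1 fit with 1 array left out. The call that was kept was that of Mest, a white-selective adipocyte marker, which rose by 1.61 log2 units. All WAT calls given above in this paragraph were among those lost.

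Markers of some other cell types also differed between FXR BAT and control BAT. Skeletal muscle also makes Ucp3, and the 20 muscle markers averaged 10.76, 10.22, 7.03, 10.73 and 8.57 log2 units on FXR BAT arrays 1 to 5, against 7.89, 7.82, 8.82, 7.12 and 6.89 on control BAT arrays 1 to 5. FXR BAT 1, 2 and 4 were thus above all other BAT arrays. The muscle list had summed intensities of 3020 to 43368 in FXR BAT and 2760 to 12187 in control BAT. Of its members 2 rose and 18 did not pass with limma (12 were higher at an unadjusted p under 0.05). All differences were positive, from 0.78 to 2.76, with a median of 1.76. The 2 calls, Myh1 and Myh2, were each lost in 10 of 21 settings. Acta1 and Ckm, defining markers, reached 12.80 and 11.83 in FXR BAT and 11.02 and 10.28 in control BAT. Without the 3 muscle-rich arrays, Ucp1 differed by -0.64 ± 0.08 log2 units (SE over 2 FXR and 5 control arrays; limma, adjusted p = 0.00226) and Ucp3 by -0.67 ± 0.05 (adjusted p = 3.04e-04, limma). Both falls were as large or larger without them.

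**Figure D4:**
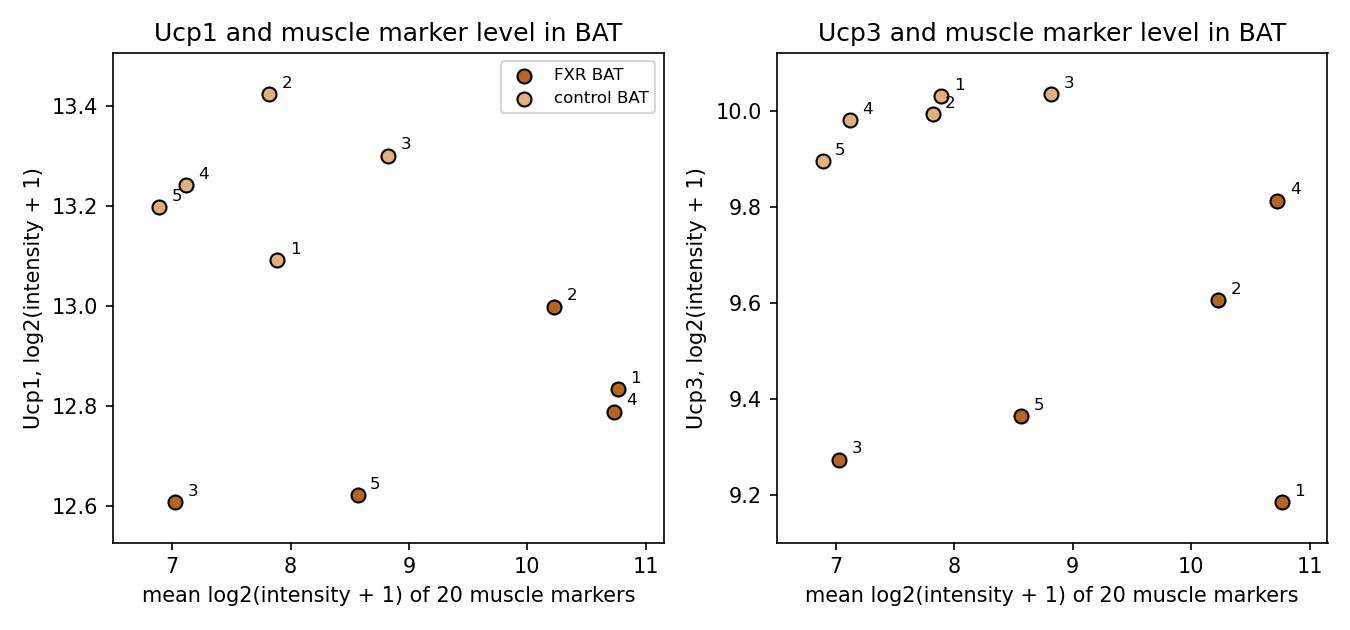
Each point is 1 BAT array, numbered by replicate, with the mean log2(intensity + 1) of 20 muscle markers on the horizontal axis and that of Ucp1 (left) or Ucp3 (right) on the vertical axis; axes do not start at 0. FXR arrays 3 and 5, with muscle levels of 7.03 and 8.57 within the control range of 6.89 to 8.82, also lie below all controls for both genes.

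Macrophage markers rose as a whole, 16 of 16 in FXR BAT, with summed intensities of 3866 to 4541 in FXR BAT and 2078 to 2719 in control BAT; Csf1r rose by 0.99, Cd68 by 0.75 and Adgre1 by 0.57. Of 13 progenitor and fibroblast markers, 12 rose, with sums of 14193 to 17195 in FXR BAT and 5659 to 8698 in control BAT. Of 17 mature adipocyte markers, 11 fell and 6 did not pass, with sums of 44301 to 47950 in FXR BAT and 53777 to 61234 in control BAT; 4 fell without FXR BAT 1, 2 and 4, 5 without control BAT 2 and 4, and 1 under quantile normalization. The median difference of the mature adipocyte list was -0.26 in each of the fits with fewer arrays and -0.13 under quantile normalization, against -0.30 over all BAT arrays. Of 12 endothelial markers, 4 fell and 1 rose, with sums of 3782 to 4610 in FXR BAT and 4713 to 5519 in control BAT. Of 13 white-selective adipocyte markers, 3 rose, and without control BAT 2 and 4 the number was 0 with limma (5 at an unadjusted p under 0.05). None of 12 lymphocyte markers passed with limma (1 at an unadjusted p under 0.05), and Cd3e, which marks T cells, differed by -0.03. No marker list was at 0 on any array. The part of these cell types in the falls of Ucp1 and Ucp3 was not tested.

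The genes whose pattern was most like that of each uncoupling protein gene were found by the root mean square difference over the 18 arrays, after centring each gene on its own mean. Cidea was nearest to Ucp1, at 0.51 log2 units, followed by Cox7a1 (0.73), the pyruvate dehydrogenase gene Pdhb (0.83), Cox8b (0.85), a cytochrome oxidase subunit, and Fabp3 (0.96), a fatty acid binding protein. They were chosen on the same arrays, so their direction in BAT is no separate result. Cox8b differed by -0.42, Fabp3 by -0.38, a call lost in 13 of 21 settings, and Pdhb by -0.26 without passing. Ucp3 lay far from Ucp1, at 2.19. Nearest to Ucp3 were Sdr39u1 (0.15), Letm1 (0.15), a mitochondrial inner membrane protein, Snx10 (0.16), a sorting nexin, Tufm (0.16), the mitochondrial elongation factor, and Ndufc1 (0.16), a complex I subunit. In FXR BAT these 5 genes differed by -0.45, -0.66, -0.54, -0.32 and -0.42 log2 units, which follows from choosing them for their likeness to Ucp3 on the same arrays. These distances are descriptions, and most of them rest on the difference between the tissues.

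Genes beside the uncoupling protein genes did not pass in BAT. Next to Ucp1, Tbc1d9 and Rnf150 differed by 0.09 and -0.04 on one side, and Elmod2 and Mgat4d by -0.10 and -0.01 on the other. Next to the Ucp2 and Ucp3 genes, C2cd3 and Gm10603 differed by -0.02 and 0.02, and Dnajb13 and Coa4 by 0.08 and 0.00486. In WAT 1 of these 8 neighbours passed, Dnajb13, which rose by 0.27 ± 0.05 (SE, adjusted p = 0.0403, limma). This call was lost in 9 of 16 settings, 7 of them with 1 array left out.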

How the data were processed

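Biotin-labelled cDNA was hybridised to Affymetrix arrays per the labels, and the authors deposited 1 intensity per probe set and array; their summary, background correction and normalization are not given in the sources used here. The 34760 probe sets ran from 36.01 to 15980 in intensity. The annotation gave 21640 of them 1 symbol, 1321 several and 11799 none, and the brightest probe set by mean log2 over 18 arrays was kept per gene. Symbols did not differ from the reference table (0 of 21553 matched). Intensities were used as deposited, as log2(intensity + 1), with no filter. Differences were tested two-sided with limma 3.58.1 (lmFit, eBayes, R 4.3.3), within BAT, within WAT, over all 18 arrays for the difference of both, and between tissues per genotype, with Benjamini-Hochberg adjustment over 19937 genes and a threshold of 0.05. The fit was tested on simulated data. Promoters are RefSeq's (GRCm38.p6).

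The members, the 17 gene lists and the settings were chosen with earlier results of these data known. Named genes were the members, 20 genes fixed by name, up to 3 called genes per list and tissue with the smallest adjusted p, the 5 genes of most similar pattern and the 2 nearest measured neighbours per side. Adrb3, fixed by name, had no single-symbol probe set and is not analysed here. The design text calls samples of a group biological replicates; p-values measure the spread between samples as labelled, and the number of arrays limits the precision. Same-numbered arrays were not paired: 1 of 5 BAT pairs and 1 of 4 WAT pairs had deviations that correlated above 0.1. Between tissues it was 3 of 4 FXR pairs and 2 of 4 control pairs. Other settings were scaling, pseudocount, filter, variance model, probe set choice, arrays left out, a replicate block and a fit over all arrays.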

Additional observations from a re-analysis of the deposited data

Results flagged for a closer look

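The FXR effect on Ucp1 differed between the tissues by the test of the difference itself, -0.56 log2 units (BAT change minus WAT change), but Ucp1 in WAT was near the low end of the scale, where a fall could not have been seen. Of the uncoupling protein genes, Ucp3 on FXR WAT 1 stood far below its group, at 6.58 against 6.97 to 7.03 on the other FXR WAT arrays.

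Over 81 named genes and 4 groups, 16 of 324 groups (4.94%) had 1 array far from the rest, where chance gives about 1 in 20. On FXR BAT arrays these were Ppargc1a at 8.09 and Tbc1d9 at 7.10 (array 1) and Lpl at 12.30 (array 3). On control BAT 2 they were Lep at 6.37, Cebpb at 9.82, Alpl at 8.38 and Npr3 at 8.08. On FXR WAT arrays they were Fabp3 at 6.29 and Mgat4d at 5.80 (array 1), Ndufc1 at 7.31 (array 2), Tufm at 7.69 (array 3) and Pcolce at 8.98 (array 4). On control WAT arrays they were Nr2f6 at 6.43 (array 1), Otop1 at 5.90 (array 2) and Slc25a11 at 7.24 (array 4). All are log2 levels.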

How the results depend on the processing

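The falls of Ucp1 and Ucp3 in BAT passed in all 21 other settings run, at -0.64 to -0.25 for Ucp1 and -0.67 to -0.40 for Ucp3. Leaving out 1 array gave -0.54 to -0.44 and -0.63 to -0.47. Without control BAT 2 and 4, Ucp1 differed by -0.43 (adjusted p = 0.0268, limma) and Ucp3, near the threshold, by -0.54 (adjusted p = 0.0448, limma). In WAT neither gene passed in any setting run, and Ucp1 was removed by the filter on dim genes, so that setting has no value; leaving out 1 array gave 0.04 to 0.12 for Ucp1 and -0.13 to 0.02 for Ucp3, which turned to 0.0195 without FXR WAT 1. The tissue difference of the Ucp1 effect passed in all 28 settings run (-0.72 to -0.51). That of Ucp3 passed in 3 of 28: at -0.58 without FXR BAT 1, 2 and 4 (adjusted p = 0.0130, limma) and at -0.54 without FXR BAT 4 and -0.56 without FXR WAT 1; all fits with 1 array left out ranged from -0.56 to -0.39. The cause was not tested.

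Genes changed in BAT numbered 3142, of which 44.5% were higher; there were 4852 with arrays centred on their medians (16.0% higher), 1913 without FXR BAT 1, 2 and 4, and 1416 without control BAT 2 and 4. Genes with a different effect in the tissues numbered 1288 (31.3% higher; 13.1% with arrays centred), 819 under quantile normalization (43.3% higher) and 727 without control BAT 2 and 4. In WAT 265 changed, 411 in a fit of all 18 arrays and 49 to 336 with 1 array left out. Between tissues, 19224 differed in FXR arrays and 19292 in controls (98.7% and 98.0% higher); quantile normalization gave 10836 and 11547 (49.5% and 50.3% higher), and centring 39.8% and 43.6% higher, and the filter on dim genes, which tests fewer genes, 9558 and 9572. Of all list members, 101 changed in BAT, 67 under quantile normalization and 61 without control BAT 2 and 4; 10 changed in WAT, 18 with dim genes removed and 1 to 11 with 1 array left out. Under quantile normalization Adipoq (0.00299) and Mdh2 (0.037) turned sign in BAT and did not pass. Of 60 other named genes called in BAT, 32 kept their call in all settings run.

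With the replicate number as a block, Ucp1 fell by 0.48 (adjusted p = 0.00472, limma) and Ucp3 by 0.54 (adjusted p = 0.0146, limma), and 2741 genes changed in BAT and 237 in WAT; 2 of 10 BAT arrays correlated best with their own number, and between tissues 6 of 8 FXR arrays and 5 of 8 control arrays did, a hint from the data and not from the design. With the block the tissue difference was -0.56 for Ucp1 (adjusted p = 0.00255, limma) and -0.45 for Ucp3 (adjusted p = 0.0749, limma). No call of Ucp1 or Ucp3 changed with it.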
